A study of Mus musculus with 6 samples.

Results

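The MAP kinase phosphatases are a family of dual-specificity phosphatases, enzymes that remove phosphate from both the threonine and the tyrosine of the activation loop of a MAP kinase and so switch it off. The 10 genes of the family were selected by their gene names (Dusp1, Dusp2, Dusp4, Dusp5, Dusp6, Dusp7, Dusp8, Dusp9, Dusp10 and Dusp16) among the 28880 genes of a liver RNA-seq series, and the family was chosen by someone who already knew how these genes differed between the groups. Each member carries a docking domain that binds its kinase and a catalytic domain, and the family is sorted by where the protein sits and which kinase it prefers. Dusp1, Dusp2, Dusp4 and Dusp5 encode nuclear enzymes that are made quickly after a stimulus. Dusp6, Dusp7 and Dusp9 encode cytoplasmic enzymes that prefer the growth factor kinase ERK, and Dusp8, Dusp10 and Dusp16 encode enzymes that prefer the stress kinases JNK and p38. In liver, Dusp1 is known as an early gene of regeneration, stress and glucocorticoid action, and several members are themselves transcribed in answer to the kinases they turn off.

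The livers came from male, wild type C57BL/6J mice aged 6 to 8 weeks. The ethanol group (3 mice) went without food for 12 h, received 50% ethanol once by mouth at 6 g/kg, and was sampled 24 h later. The control group (3 mice) received no ethanol. The labels do not say whether control mice were fasted or at what time they were sampled. Fasting, sampling time and ethanol can therefore not be told apart. All 6 libraries carry the same batch label. Nothing in the labels marks any of the tissue as sorted, so each library holds all the cell types of the liver. In such bulk RNA, fewer cells of a type and less RNA per cell cannot be told apart.

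Each library held 60514417 to 74210869 counts, and 16717 genes passed the filter on low counts, among them 9 of the 10 members. Levels between mice are given as CPM, that is, counts divided by library size corrected by edgeR's TMM factors, and levels between genes as FPKM, the authors' values scaled to transcript length and library size. TMM factors were 0.768 to 0.836 in the ethanol libraries and 1.26 to 1.27 in the control libraries, so the FPKM values, which lack this step, set the ethanol group lower than CPM does. With library size alone in place of TMM, the median log2 fold change of all tested genes moved from -0.04 to -0.71. The third ethanol library stood apart, at -88.7 on a second principal component (16.7% of the variance) on which the other ethanol libraries lay at 33.4 and 51.7 and the control libraries between 0.460 and 2.01. Its values are therefore printed beside those of the other ethanol mice, and the fold change of each member is given with and without it.

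Of the 9 members tested, 7 had a higher level after ethanol past the thresholds used for all genes (adjusted p under 0.05 and log2 fold change beyond 1 in edgeR's quasi-likelihood test), and 0 had a lower one. Over all genes tested the same thresholds called 10.4% higher and 13.8% lower. Without the third ethanol mouse, 7 members were past the thresholds as higher and 1 as lower, against 10.9% and 16.5% of the 17622 genes then tested, and Dusp6 and Dusp7 entered while Dusp2 left. Without the second ethanol mouse or any 1 control mouse, 4 members were past them as higher. Over all genes, 1693 of the 17528 tested were past them as higher without that ethanol mouse. Without a control mouse, 1490 to 1519 genes were, of 17279 to 17385 tested. Over all settings tried, Dusp1 was past the thresholds in 5 of 17, Dusp16 in 6 of 17 and Dusp2 in 7 of 16. Dusp4 and Dusp8 were past them in 17 of 17. In CPM, all 3 ethanol mice lay above all 3 control mice for 6 of the 9 members and below them for 0, against 28.0% and 31.0% of all genes tested. In FPKM, which lacks the TMM step, only Dusp4, Dusp5 and Dusp8 kept this separation, and Dusp7 lay wholly below the control mice. Because the members were proposed with this contrast known, these counts are a description, no p-value is given for a member, and nothing is read from them about the family. By class, the median log2 fold change was 2.35 for the 4 nuclear members, 0.59 for the 2 cytoplasmic members tested and 2.0 for the 3 stress-kinase members, beside -0.04 over all genes.

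**Figure D1:**
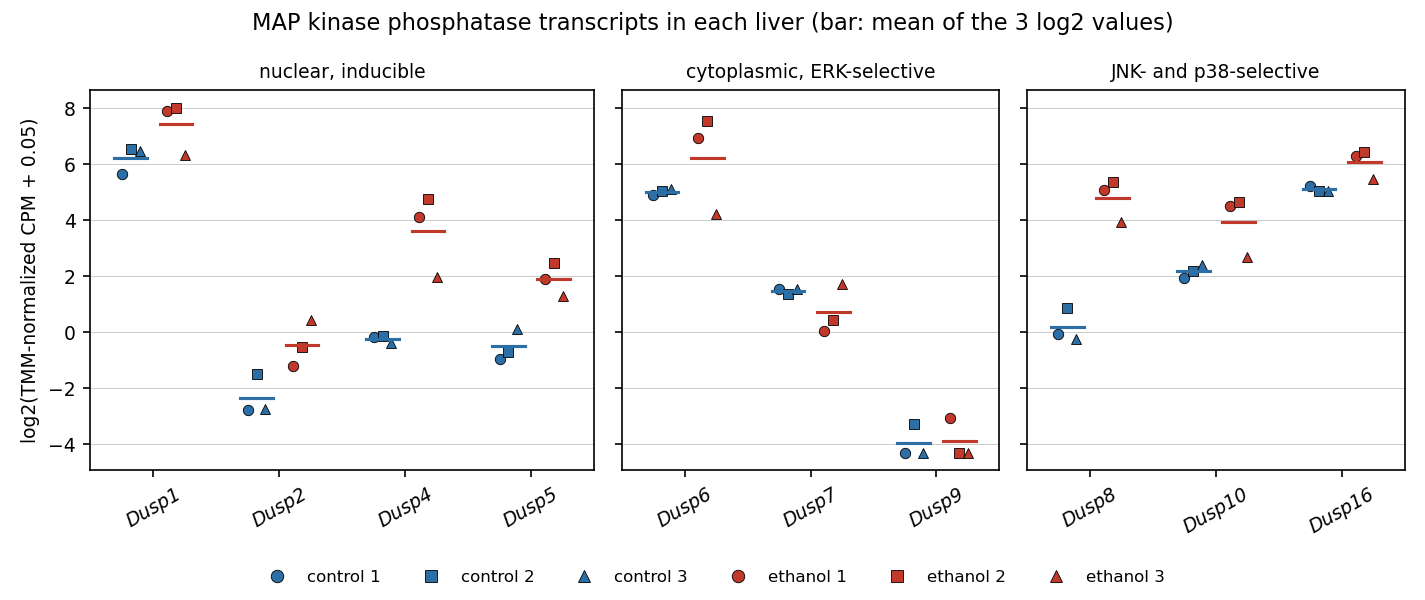
TMM-normalized CPM of each member in each liver, on a log2 scale after adding 0.05, with control mice in blue, ethanol mice in red, a marker shape for each replicate number (for which the labels give no pairing) and a bar at the mean of the 3 log2 values of a group. The third ethanol mouse (red triangle) lay below the other ethanol mice for 7 of the 9 tested members and above them for Dusp2 and Dusp7.

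The promoters of members whose levels frame the family are shown first, to let the reader see what stands upstream of the most abundant member (Dusp1), the member with the largest fold change (Dusp8), the member with paired serum-response motifs (Dusp5) and both tested cytoplasmic members (Dusp6 and Dusp7). RefSeq promoter sequences of the GRCm38.p6 assembly were matched by symbol for 8 of the 10 members, with Dusp4 and Dusp9 not matched. Each run below holds the 250 bases before the annotated transcript start, read 5′ to 3′ on the gene's strand, from chr17:26508473-26508722 (minus strand) for Dusp1, chr7:142095285-142095534 (minus strand) for Dusp8, chr19:53528895-53529144 (plus strand) for Dusp5, chr10:99262981-99263230 (plus strand) for Dusp6 and chr9:106368382-106368631 (plus strand) for Dusp7. Capitals mark the cyclic AMP response element (CRE, TGACGTCA), its shorter form TGACG, the E-box CACGTG and the CArG box, the motif bound by serum response factor. AP-1 sites (TGANTCA) would have been capitals too, and none was found in the 8 promoters.
Dusp1: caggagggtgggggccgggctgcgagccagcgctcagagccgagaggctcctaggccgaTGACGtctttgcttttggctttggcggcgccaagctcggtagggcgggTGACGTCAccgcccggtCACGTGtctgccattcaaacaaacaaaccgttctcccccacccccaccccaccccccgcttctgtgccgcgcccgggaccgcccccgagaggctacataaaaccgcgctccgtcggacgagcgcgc
Dusp8: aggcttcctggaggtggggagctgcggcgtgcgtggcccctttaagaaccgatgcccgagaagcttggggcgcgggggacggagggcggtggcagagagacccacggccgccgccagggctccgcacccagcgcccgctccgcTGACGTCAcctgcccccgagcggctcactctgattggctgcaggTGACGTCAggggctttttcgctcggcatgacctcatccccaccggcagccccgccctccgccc
Dusp5: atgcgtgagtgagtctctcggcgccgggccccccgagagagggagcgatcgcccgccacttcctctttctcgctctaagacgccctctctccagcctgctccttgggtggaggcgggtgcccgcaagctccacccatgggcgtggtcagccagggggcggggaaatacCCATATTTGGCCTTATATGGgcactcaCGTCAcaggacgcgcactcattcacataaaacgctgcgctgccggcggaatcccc
Dusp6: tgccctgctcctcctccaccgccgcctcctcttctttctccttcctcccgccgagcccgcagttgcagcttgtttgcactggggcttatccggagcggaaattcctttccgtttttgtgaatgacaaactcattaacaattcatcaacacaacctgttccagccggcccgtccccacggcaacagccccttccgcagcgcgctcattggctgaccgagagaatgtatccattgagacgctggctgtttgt
Dusp7: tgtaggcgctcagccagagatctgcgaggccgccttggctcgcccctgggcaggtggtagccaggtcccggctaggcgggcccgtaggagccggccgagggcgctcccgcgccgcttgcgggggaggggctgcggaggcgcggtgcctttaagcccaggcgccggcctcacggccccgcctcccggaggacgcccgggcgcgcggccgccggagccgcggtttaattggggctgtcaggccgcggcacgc

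The CRE, bound by CREB and related factors, was present in 2 of the 8 promoters and in 1.55% of the 32851 mouse promoters in the same table, both strands searched. Dusp1 held 1 CRE at 143 to 136 bases before the start, and an E-box at 126 to 121. Dusp8 held 2 CREs, at 107 to 100 and at 63 to 56 bases before the start, a number reached by 10 promoters of the table (0.0304%). Dusp5 held 2 adjoining CArG boxes, at 82 to 73 and at 72 to 63 bases before the start, a number reached by 6 promoters (0.0183%), whereas 1.47% held at least 1. The shorter TGACG, which also lies inside every CRE, was present in 4 of the 8 (Dusp1, Dusp5, Dusp8 and Dusp16) and in 17.8% of all promoters, and the E-box in 2 (Dusp1 and Dusp2) and in 6.02%. The promoters of Dusp6 and Dusp7 held none of the capitalised motifs.

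Commoner motifs were also counted. The CCAAT box (CCAAT) was present in 5 of the 8 promoters and in 33.8% of all, with 3 copies in Dusp10. The GC box (GGGCGG) was present in 6 of the 8 and in 32.7% of all, with 5 copies in Dusp16, of which the nearest pair share a base. The ETS core (GGAAG) was present in 4 of the 8 against 64.1%, and TATAAA in 0 of the 8 against 12.4%, as AP-1 sites were in 0 against 6.75%. The share of G and C ran from 56.4% in Dusp6 to 77.2% in Dusp7. A match is a description of letters, not a bound site, and a missing match says only that these letters are not in this window.

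**Figure D2:**
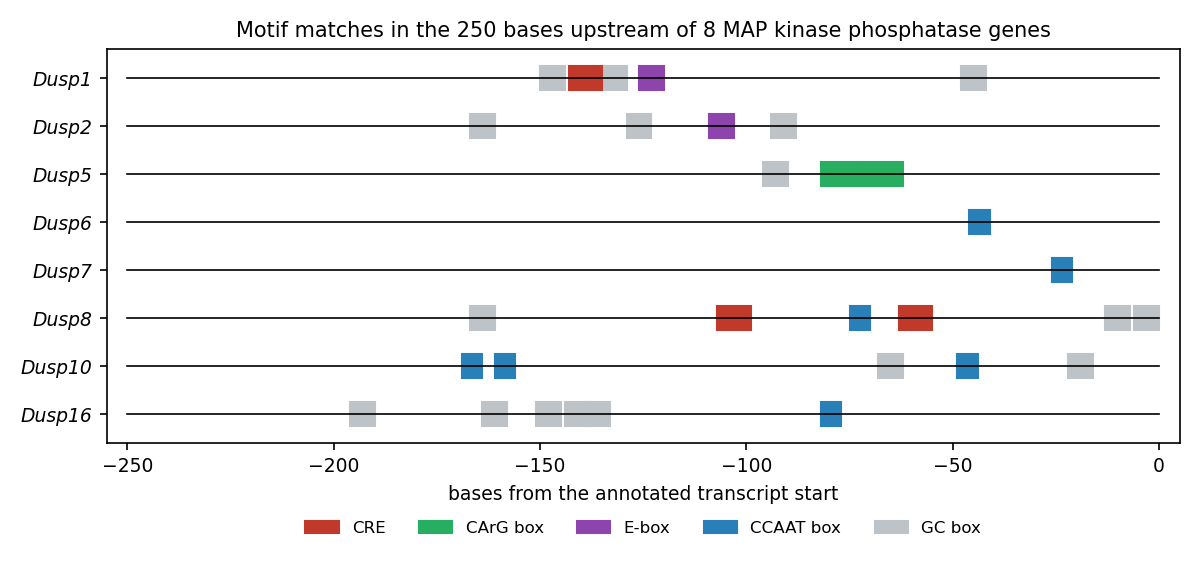
Matches of the CRE, CArG box, E-box, CCAAT box and GC box (coloured blocks, to scale) in the 250 bases before the transcript start of 8 members, with the distance from the start in bases on the horizontal axis. Dusp8 shows 2 CREs and Dusp1 shows 1, Dusp5 alone of the 8 shows CArG boxes, and Dusp6 and Dusp7 show 1 CCAAT box each and no other block.

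Per length of transcript, Dusp1 was the most abundant member in control liver, at a mean of 27.4 FPKM (17.8 to 33.3 in the 3 mice). Dusp6 followed at 12.2, Dusp16 at 5.18, Dusp10 at 1.74 and Dusp7 at 0.956 FPKM, and none of these neighbours overlapped between mice. Dusp4 (0.340), Dusp5 (0.325) and Dusp8 (0.279) formed a run in which each overlapped the next. Dusp2 was at 0.0909 and Dusp9 at 0.00758 FPKM. One member of each class was thus among the 3 most abundant, with Dusp1 for the nuclear, Dusp6 for the cytoplasmic and Dusp16 for the stress-kinase enzymes.

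After ethanol the order by mean FPKM was Dusp1 (43.6), Dusp6 (26.1), Dusp16 (6.65), Dusp8 (4.57), Dusp4 (4.44), Dusp10 (4.41), Dusp5 (1.16), Dusp7 (0.403), Dusp2 (0.279) and Dusp9 (0.00613). The 3 leading members kept their places. Dusp8 moved from the eighth place to the fourth and Dusp4 from the sixth to the fifth, while Dusp7 moved from the fifth to the eighth. Between ethanol mice the ranges were so wide that every neighbour in this order overlapped, except Dusp2 and Dusp9.

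Among the nuclear enzymes, Dusp4 and Dusp5 differed most between the groups and Dusp1 held most of the transcript. Dusp1 (ENSMUSG00000024190) encodes the first described member, which acts on p38 and JNK and also on ERK. Its level was 240, 258 and 80.8 CPM in the 3 ethanol mice and 49.9, 93.6 and 87.7 CPM in the 3 control mice. The groups overlapped, because the third ethanol mouse lay between the control mice whereas the other ethanol mice lay above all of them. The means were 193 ± 97.4 and 77.0 ± 23.7 CPM (SD, n = 3 each), a log2 fold change of 1.32 ± 0.43 (SE), or 1.70 ± 0.25 without the third ethanol mouse.

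Dusp1 is also the member that overlaps the most other genes. The deposited table places it at chr17:26724564-26781102 on the minus strand, a span of 56539 bases over which it overlaps Ergic1, Gm8225 and Gm56886, all on the other strand. Whether counting used the strand is not given in the sources used here, and reads of such pairs can then not be told apart. Ergic1, a gene of transport between endoplasmic reticulum and Golgi, had 3549, 3580 and 2922 counts in the ethanol mice and 6053, 5480 and 6000 in the control mice. Dusp1 had 13801, 15762 and 4408 counts against 4682, 7130 and 7221, so Ergic1 had fewer counts in every ethanol mouse than in any control mouse.

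Dusp4 (ENSMUSG00000031530, chr8:35274451-35287048, plus strand), an enzyme for ERK and JNK that ERK signalling is known to induce, was at 17.3, 27.2 and 3.83 CPM after ethanol. In control liver it was at 0.831, 0.853 and 0.704 CPM, from 78, 65 and 58 counts. Every ethanol mouse lay above every control mouse, and even the lowest ethanol mouse was 4.81-fold above the control mean, beside 21.8-fold and 34.1-fold in the others. Its log2 fold change was 4.34 ± 0.61 (SE), and 4.81 ± 0.22 without the third ethanol mouse.

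Dusp5 (ENSMUSG00000034765, chr19:53517540-53530862, plus strand), the nuclear phosphatase that is specific for ERK and whose promoter holds the paired CArG boxes shown above, was at 3.70, 5.43 and 2.40 CPM after ethanol. The control mice were at 0.469, 0.564 and 1.03 CPM. The groups did not overlap, and the spread within the ethanol group was narrower than for Dusp4. Between the groups the log2 fold change was 2.48 ± 0.42 (SE), or 2.74 ± 0.38 without the third ethanol mouse. Gm50394, a long non-coding RNA on the other strand at its start, had at most 4 counts in any library.

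Dusp2 (ENSMUSG00000027368, chr2:127178079-127180296, plus strand), known from activated lymphocytes and other leukocytes, was the scarcest tested member. It had 22, 39 and 70 counts in the ethanol mice and 9, 23 and 8 in the control mice, which is 0.382, 0.638 and 1.28 CPM against 0.0959, 0.302 and 0.0971. In CPM the groups did not overlap, and here the third ethanol mouse was the highest. In FPKM they overlapped, with the first ethanol mouse (0.136) below the second control mouse (0.170). Its log2 fold change was 2.22 ± 0.69 (SE) and 1.64 ± 0.75 without that mouse, when the gene was no longer past the thresholds.

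Markers of leukocytes were measured beside it. Of the 6 neutrophil markers, 5 were tested and 4 rose (S100a8, S100a9, Mmp8 and Retnlg, edgeR adjusted p from 0.00655 to 0.0165). The other tested marker, Csf3r, had a log2 fold change of 0.37 (edgeR adjusted p = 0.69). Its groups overlapped, at 0.939, 0.376 and 2.88 CPM after ethanol against 0.820, 1.46 and 0.971 in control liver. The summed level of the 6 markers was 2.92, 3.40 and 14.7 CPM in the ethanol mice against 1.15 to 1.57 CPM in the control mice. The summed level was highest in the third ethanol mouse, as Dusp2 was, and Ly6g, a defining marker, had 9 counts in that mouse and 0 in the other 5 libraries. The 6 T cell markers summed to 0.556 to 0.770 CPM after ethanol and to 2.05 to 2.76 CPM in control liver. Cd8a, which was not tested, had 0 counts in all 3 ethanol mice and 14, 8 and 6 in the control mice. Of the tested T cell markers only Cd4 passed the thresholds (log2 fold change -1.78, edgeR adjusted p = 0.0078). Cd3g (-3.08) and Cd3e (-0.21) did not, and Cd3e had its highest level in the third ethanol mouse (19 counts). The 4 B cell markers summed to 0.825 to 2.40 and 1.20 to 2.07 CPM. The part of these cells in the level of Dusp2 was not tested.

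In the main test, neither tested cytoplasmic enzyme was past the thresholds with all mice, and Dusp9 was hardly detected. The mean level after ethanol was higher for Dusp6 and lower for Dusp7, with groups that overlapped in CPM for both. Dusp6 (ENSMUSG00000019960, chr10:99099093-99103351, plus strand) encodes the ERK-specific phosphatase best known as a feedback target of growth factor signalling. Its level was 121, 185 and 18.6 CPM in the ethanol mice and 29.7, 33.2 and 34.4 CPM in the control mice. The first and second ethanol mice lay 3.74-fold and 5.69-fold above the control mean, and the third lay 1.75-fold below it, under every control mouse. The control mice agreed closely (32.4 ± 2.49 CPM, SD, n = 3) and the ethanol mice did not (108 ± 83.8 CPM).

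The fitted log2 fold change of Dusp6 was accordingly 1.74 ± 0.66 (SE), short of the thresholds, with all mice, and 2.25 ± 0.17, past them, without the third ethanol mouse. The difference between the groups for Dusp6 therefore depends on that mouse. Measured as the SD of log2 CPM among ethanol mice, Dusp6 varied more than 99.7% of the genes tested and Dusp4 more than 99.3%, followed by Dusp10 (98.3%) and Dusp1 (97.5%). Among control mice the SD of log2 CPM was 0.11 for Dusp6 and 0.50 for Dusp1.

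Dusp7 (ENSMUSG00000053716, chr9:106245831-106252923, plus strand), a close relative of Dusp6 that also prefers ERK, was at 0.973, 1.31 and 3.26 CPM after ethanol and at 2.83, 2.49 and 2.87 CPM in control liver. It was the only tested member with a lower mean after ethanol. In CPM, the first and second ethanol mice lay below every control mouse and the third lay above every one, the reverse of Dusp6. In FPKM the third ethanol mouse (0.696) also lay below every control mouse (0.872 to 1.00). With library size alone the log2 fold change of Dusp7 was -1.25, past the thresholds. The log2 fold change was -0.57 ± 0.45 (SE), and -1.25 ± 0.25, past the thresholds, without the third ethanol mouse. Dusp9 (ENSMUSG00000031383, chrX:72683025-72687120, plus strand), which is best known from placenta and insulin-responsive tissue, had 4, 0 and 0 counts after ethanol and 0, 4 and 0 in control liver. At this depth no comparison of Dusp9 was made.

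**Figure D3:**
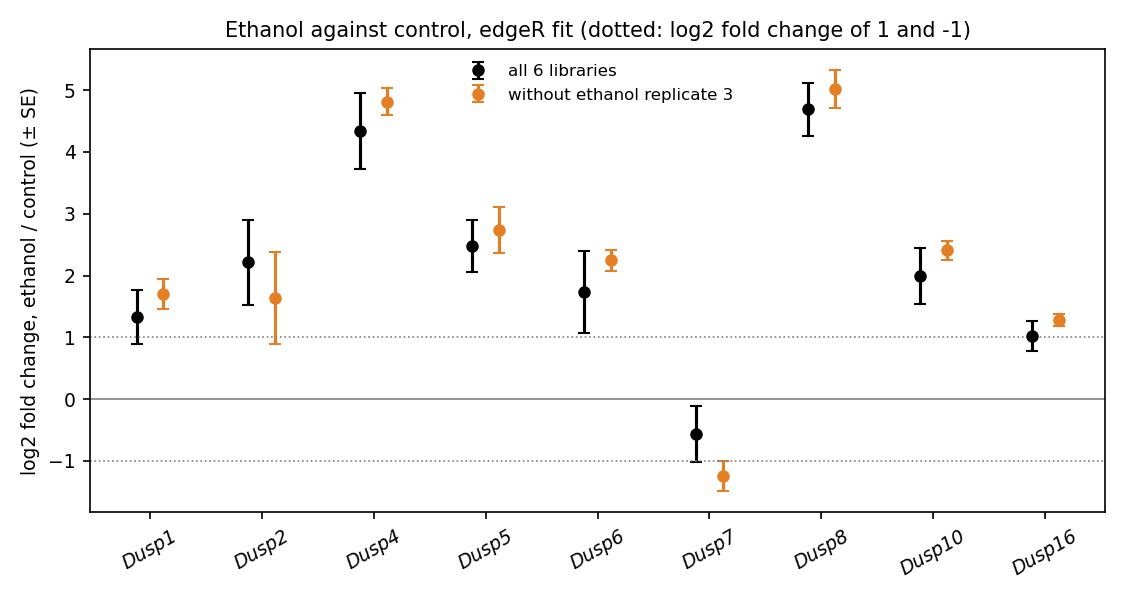
Fitted log2 fold change of the 9 tested members (points) with its standard error (bars), for all 6 libraries in black and without the third ethanol mouse in orange, with dotted lines at 1 and -1. Dusp8 and Dusp4 lie above 4 in both fits, Dusp7 lies below 0 in both, and the standard error of Dusp6 narrows from 0.66 to 0.17 when that mouse is left out.

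In CPM, all 3 stress-kinase phosphatases were higher in each ethanol mouse than in any control mouse, by very unequal amounts. In FPKM only Dusp8 was. On that scale the third ethanol mouse lay below every control mouse for Dusp16 (4.04 against 4.90 to 5.69). For Dusp10 it lay between the control mice (1.51 against 1.46 to 2.02). Dusp8 (ENSMUSG00000037887, chr7:141633227-141649580, minus strand), a JNK and p38 phosphatase known mostly from brain and heart, had the largest fold change in the family. It was at 33.3, 40.5 and 15.4 CPM after ethanol and at 0.895, 1.78 and 0.789 CPM in control liver. The ethanol mice lay 28.8-fold, 35.0-fold and 13.3-fold above the control mean, so the third mouse was the lowest of them yet far from the control mice. In the fit the log2 fold change was 4.69 ± 0.43 (SE), and 5.02 ± 0.30 without that mouse. Its promoter is the one with the pair of CREs printed above.

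Dusp10 (ENSMUSG00000039384, chr1:183745499-183807833, plus strand), which acts on JNK and p38 in cytoplasm and nucleus, was at 22.4, 25.0 and 6.40 CPM after ethanol and at 3.76, 4.5 and 5.22 CPM in control liver. The third ethanol mouse was 1.42-fold above the control mean and the others about 5-fold (4.98 and 5.56). The log2 fold change was 2.0 ± 0.46 (SE) for Dusp10, and 2.41 ± 0.16 without the third mouse. 1700056E22Rik, on the other strand within it, had 16 to 59 counts in every library, against 343 to 1528 for Dusp10.

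Dusp16 (ENSMUSG00000030203, chr6:134692431-134769588, minus strand), a JNK phosphatase that shuttles between cytoplasm and nucleus, had the smallest difference of the class and the highest level. It was at 77.3, 87.2 and 44.0 CPM after ethanol and at 37.5, 32.8 and 32.5 CPM in control liver. In CPM the groups did not overlap, although the third ethanol mouse was only 1.28-fold above the control mean. The log2 fold change was 1.02 ± 0.24 (SE), just beyond the threshold of 1, and 1.28 ± 0.09 without that mouse.

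The third ethanol mouse lay below both other ethanol mice for 7 of the 9 tested members, beside 39.1% of all genes tested. The ratio of the mean of the first and second ethanol mice to the third was 8.23 for Dusp6, 5.81 for Dusp4, 3.70 for Dusp10, 3.08 for Dusp1, 2.40 for Dusp8, 1.90 for Dusp5 and 1.87 for Dusp16. In the other direction, the third mouse exceeded that mean 2.51-fold for Dusp2 and 2.86-fold for Dusp7. The CPM of the 10 members summed to 517, 630 and 176 in the ethanol mice and to 126 to 170 in the control mice, so the third ethanol mouse was just above the control range in the summed level. Within the third mouse, Dusp8, Dusp4, Dusp5 and Dusp2 lay above every control mouse in CPM, at 13.3-fold, 4.81-fold, 3.49-fold and 7.78-fold of the control mean. Dusp10, Dusp16 and Dusp7 also lay above every control mouse in CPM, by less (1.42-fold, 1.28-fold and 1.19-fold of the control mean). Dusp1 was within 1.05-fold of the control mean, and Dusp6 lay below every control mouse.

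Other lists moved with that mouse in part. It lay below both other ethanol mice for 6 of 7 genes of the Sprouty, Spred and Errfi1 list, 9 of 10 glucocorticoid-responsive genes, 11 of 17 immediate-early genes and 3 of 9 atypical dual-specificity phosphatases. The summed level of the immediate-early genes in the third mouse was 0.305 of the mean of the others, against 0.307 for the 10 phosphatases and 0.694 for the glucocorticoid-responsive genes. The library was as deep as the others (71123046 counts). What sets this mouse apart was not tested.

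**Figure D4:**
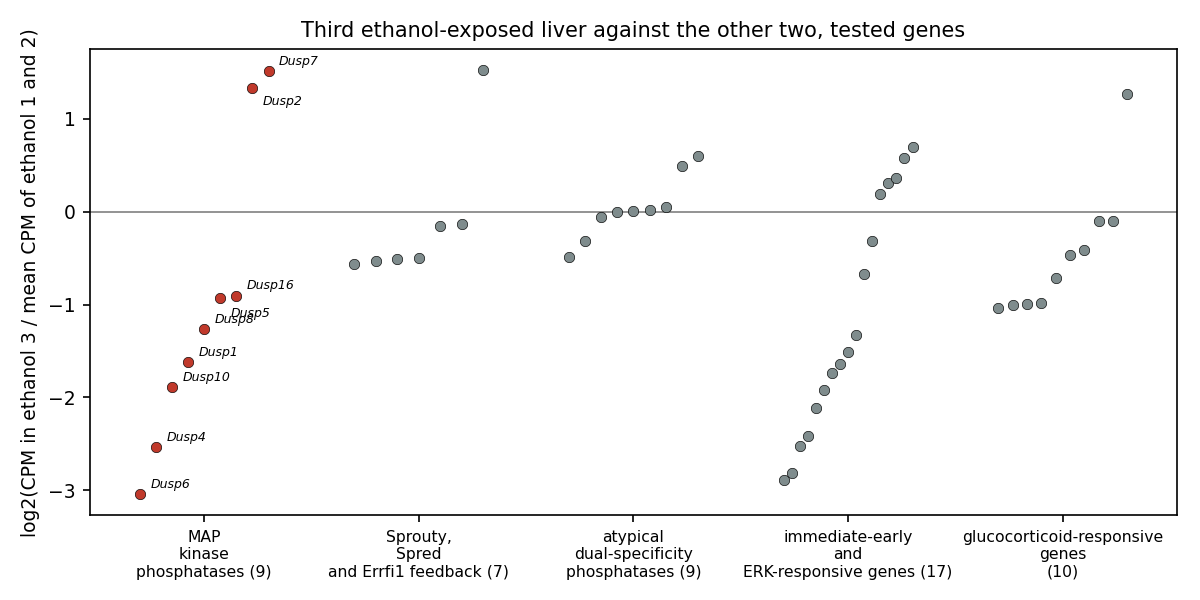
Log2 ratio of CPM in the third ethanol mouse to the mean of the other ethanol mice for each tested gene of 5 lists, sorted within a list, with the number of tested genes in brackets and the MAP kinase phosphatases in red. Dusp6 and Dusp4 lie lowest among the phosphatases and Dusp7 and Dusp2 lie above 0, and the immediate-early genes spread over a similar range.

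Genes whose pattern over the 6 libraries was nearest to the most abundant member of each class were sought by the distance between centred log2(CPM + 1) profiles, over the genes tested. For Dusp1 these were Mcm2 (distance 0.356), a subunit of the replicative helicase, mt-Ta (0.493), a mitochondrial transfer RNA, and Tut4 (0.531), which adds uridines to RNA. For Dusp6 they included Otud1 (0.490), a deubiquitinase, and Phlda1 (0.529), and in both, as in Dusp6, the third ethanol mouse lay below every control mouse. Phlda1, for example, was at 56.7, 93.7 and 10.98 CPM after ethanol and at 20.5, 22.9 and 21.4 CPM in control liver. For Dusp16 they were nearer, with Pck1 (0.140), the rate-limiting enzyme of gluconeogenesis, Ing3 (0.150), a chromatin reader, and Gys2 (0.188), the glycogen synthase of liver. Pck1 was at 4521, 5248 and 2377 CPM after ethanol and at 2124, 1972 and 1872 CPM in control liver.

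The tiers of the kinase cascade were counted against the same background of 10.4% higher and 13.8% lower over all genes. Of 13 MAP kinases tested, 3 rose and 1 fell, with a median log2 fold change of -0.02. The list holds the ERK, JNK and p38 kinases that these phosphatases act on and atypical kinases besides. Mapk4 and Mapk6, the atypical kinases ERK4 and ERK3, rose by 2.81 and 1.68 on the log2 scale, Mapk14, which encodes p38α and was the most abundant of the list, rose by 1.12 (0.97 without the third ethanol mouse, short of the threshold), and Nlk fell by 1.38 (edgeR adjusted p from 0.000218 to 0.00136). Of the 7 MAP kinase kinases, Map2k3, which activates p38, rose by 2.03 (adjusted p = 0.000198) and Map2k7, which activates JNK, fell by 1.01 (adjusted p = 0.00749), with a median of 0.30. The call of Map2k7 was lost with the length trend removed and without the first ethanol, the second ethanol or the first control mouse, and with limma on log2(FPKM + 1) 0 of the MAP kinases passed as higher. Map2k6, another activator of p38, had a log2 fold change of 1.84 with all mice, short of the adjusted p, and was past the thresholds without the third ethanol mouse (2.34), so that 2 of the list were then higher.

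Of 20 MAP kinase kinase kinases tested, 4 rose and 1 fell, with a median of 0.20. Map3k6 and Map3k5, the stress kinases ASK2 and ASK1, rose by 6.05 and 2.27, Map3k8, an activator of ERK in inflammation, by 3.35, and Map3k14 by 1.22, whereas Map3k4 fell by 1.07 (edgeR adjusted p from 5.61e-05 to 0.0179). Without the third ethanol mouse 5 were higher and 0 lower past the thresholds, as Map3k14 and Map3k4 left (0.90 and -0.996) and Map3k9 and Map3k15 entered (2.97 and 1.02). Of 10 kinases that MAP kinases activate, Mapkapk2, which p38 activates, and Mknk2, which phosphorylates the cap-binding protein, rose by 2.52 and 2.56 (adjusted p = 0.000243 and 0.00408), with a median of 0.21. Mknk2 was at 697, 829 and 218 CPM after ethanol against 94.9 to 105 in control liver, lowest in the third ethanol mouse as most phosphatases were.

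Inhibitors of receptor to ERK signalling other than phosphatases rose in part. Of the 7 tested genes of the Sprouty, Spred and Errfi1 list, 4 rose, the lowest fitted log2 fold change was 0.39 (Spry2) and the median was 1.16. Spry4 rose by 2.27, Errfi1, an inhibitor of the EGF receptor and the most abundant of the list, by 1.55, Spry1 by 1.16 and Spred2 by 1.02 (edgeR adjusted p from 0.000654 to 0.00462). With library size alone or limma on log2(FPKM + 0.1) in place of the main test, 1 gene of the list passed as higher (Spry4), and with limma on log2(FPKM + 1) 0 did, though all 4 kept a log2 fold change above 0. Spry4 was at 18.0, 17.8 and 16.0 CPM after ethanol, so it did not show the gap between ethanol mice seen for Dusp6. Of 6 other phosphatases that act on MAP kinases, 1 rose, Ppp2cb, a catalytic subunit of protein phosphatase 2A, by 1.18 (adjusted p = 0.00096), a call lost with library size alone and with limma. Ppm1b, which had the highest mean FPKM of this list over all 6 libraries but lay below Ppp2cb in each ethanol mouse, had a log2 fold change of -0.08 that turned positive, to at most 0.10, under some settings.

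The atypical dual-specificity phosphatases, the nearest relatives of the family, which lack the kinase-docking domain, were described in the same way. Of the 16 found by name, 9 were tested, 1 rose and 3 fell, and the median log2 fold change was -0.56. Dusp14 rose by 2.72, Dusp12 fell by 1.79, Dusp19 fell by 1.76 and Dusp11 fell by 1.05 (edgeR adjusted p from 0.000465 to 0.00211). These calls were the same without the third ethanol mouse, but Dusp11 was not past the thresholds with the length trend removed or without the first or the second ethanol mouse. With library size alone or limma on log2(FPKM + 0.1), 6 of the list passed as lower. The difference between these phosphatases and the family was not tested.

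Genes known to answer MAP kinase activity were mostly higher after ethanol. The list of immediate-early and ERK-responsive genes also holds the SRF and ETS factors that are their partners. Of its 17 tested genes, 11 rose and 1 fell, with a median of 3.12. The gene that fell was Elk3 (log2 fold change -1.39, edgeR adjusted p = 0.00544), which is such a partner. Egr1, a transcription factor induced by ERK, rose by 6.33 and was at 436, 1059 and 106 CPM after ethanol against 5.55 to 7.30 in control liver. Junb, Fosl2, Ier3 and Jund, the first, second and last of them subunits of AP-1, rose by 3.68, 3.32, 3.12 and 2.995 (edgeR adjusted p from 0.000198 to 0.0015 for these genes and Egr1). Etv4, an ETS factor, had 45, 22 and 25 counts after ethanol and 0 in every control library, at least 14.8-fold higher against a floor of 3 counts per library. Ier3 was highest in the third ethanol mouse (5.86 CPM, against 3.35 and 3.89), and Egr1, Fosl2, Junb and Jund were lowest in it.

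Of 10 glucocorticoid-responsive genes, a list that also holds genes already known to differ in these data, 6 rose and 1 fell, with a median of 1.33. Fkbp5 rose by 3.95, Per1 by 3.85, Zbtb16 by 2.99, Tat, an amino acid catabolic enzyme and the most abundant of the list, by 2.13, and Klf9 by 1.64 (edgeR adjusted p from 9.88e-05 to 0.000423). With library size alone or limma on either FPKM scale 4 of the list passed as higher, and Klf9 was not among them. Fkbp5 was highest in the third ethanol mouse (101, 103 and 246 CPM), opposite to Dusp1, while Per1 was lowest in it (101, 101 and 50.4 CPM). Tsc22d3 fell by 1.06 (adjusted p = 0.0156), a call lost without the third ethanol mouse (-0.79), without the first control mouse and with the length trend removed. Of 6 proteins that bind AU-rich elements and govern the decay of short-lived transcripts, Zfp36 rose by 2.06 and Zfp36l2 by 1.28 (adjusted p = 0.0127 and 0.00305), with a median of 0.57. With limma on either FPKM scale 0 of these 6 passed as higher, with library size alone 1 did, and without the first or the second control mouse 1 did. Zfp36 was at 558, 703 and 158 CPM after ethanol against 108 to 120 in control liver.

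**Figure D5:**
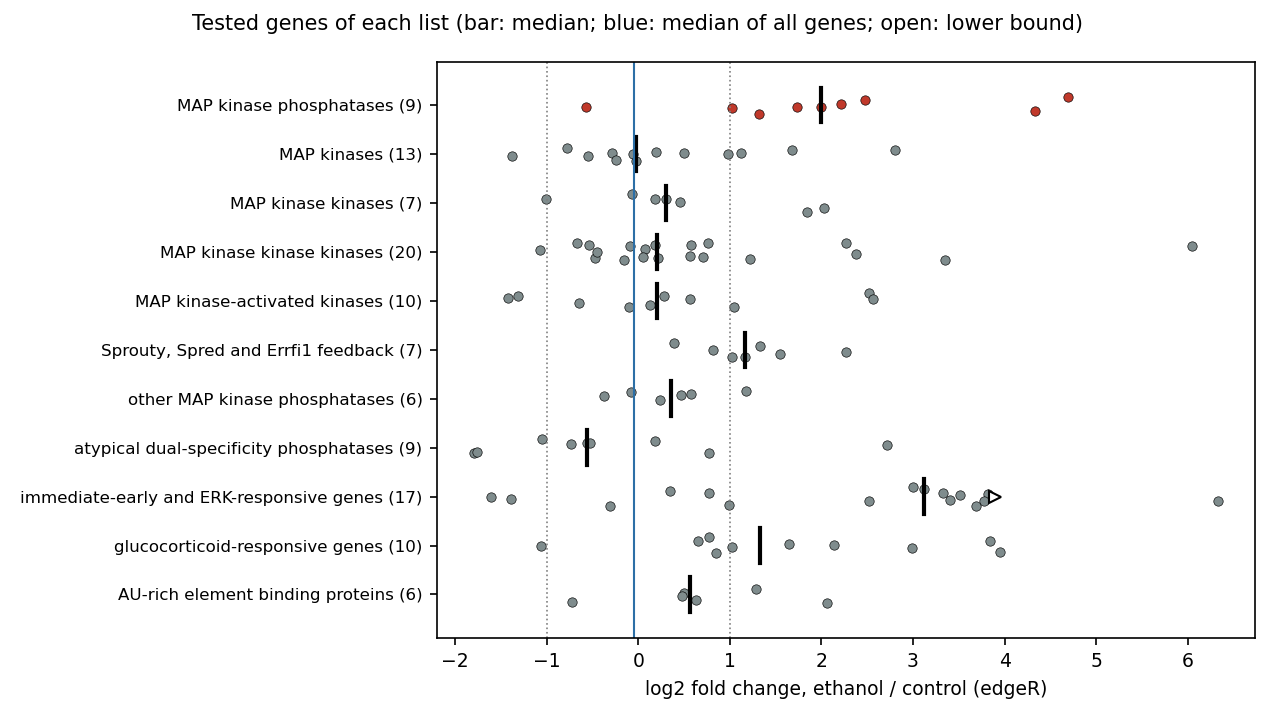
Log2 fold change (ethanol over control, edgeR) of each tested gene of the family and of the 10 lists, with the median of each list as a black bar, the median of all tested genes (-0.04) as a blue line, dotted lines at 1 and -1, and Etv4 as an open triangle at its lower bound. The phosphatases centre on 2.0, the immediate-early genes on 3.12 and the atypical phosphatases on -0.56.

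The tissue label was checked against markers of its cells. The 8 hepatocyte markers summed to 125833 to 128139 CPM after ethanol and to 68900 to 81114 CPM in control liver. Among them 1, Apoa1, passed the thresholds (log2 fold change 1.24). In FPKM, which lacks the TMM step, only Apoa1 and Apoa2 were higher in each ethanol mouse than in any control mouse. On that scale Cps1 was lower in each ethanol mouse. The other markers overlapped, with Alb at 28716.1 to 31581.5 FPKM after ethanol against 24933 to 30178.4 in control liver. The 6 Kupffer cell markers summed to 66.9 to 90.4 and 91.4 to 96.2 CPM, with fitted log2 fold changes from -0.60 to 0.0015. The 6 sinusoidal endothelial markers summed to 83.1 to 154 and 98.5 to 110 CPM, the 6 stellate markers to 122 to 153 and 116 to 149, and the 5 cholangiocyte markers to 57.6 to 75.0 and 31.7 to 73.1. Within these overlapping sums single markers passed the thresholds in both directions. Lyve1 rose by 3.59 and Kdr fell by 1.57 among the endothelial markers, Col3a1 fell by 2.44 among the stellate markers and Sox9 rose by 2.78 among the cholangiocyte markers (edgeR adjusted p from 5.61e-05 to 0.00598). The part of these cell types in the levels of the phosphatases was not tested.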

How the data were processed

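Liver RNA from 3 ethanol-exposed and 3 control mice was sequenced as 150-base read pairs. The authors deposited a whole-number count of reads per gene, not normalized, and beside it an FPKM value, scaled to transcript length and library size. The aligner, the counter and the strand setting are not given in the sources used here. The submitters' processing notes name GRCm38 (mm10), but of 27049 genes matched to a GRCm38 annotation only 3.51% start within 1 kb of it, and 0 of the 10 members do, although all 10 have the same span. Gene coordinates are therefore the deposited table's, of unstated build, and are kept apart from the GRCm38.p6 promoter coordinates.

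Counts were tested with edgeR 4.0.16 (quasi-likelihood test, filterByExpr, TMM, Benjamini-Hochberg over all genes tested, no covariates) in R 4.3.3. A gene was called where the adjusted p was under 0.05 and the absolute log2 fold change over 1. Alternatives used limma 3.58.1 on log2(FPKM + 1) and DESeq2 1.42.0. The fit was tested on simulated data first. The p-values set the difference between groups against the spread between 3 mice per group, which edgeR moderates across genes. Except in genes with few counts, such as Dusp2, this spread limits the precision more than depth does. Where no library of a group exceeded 3 counts, a gene was treated as not detected there, a bound that covers counting error only. In the table, 1 column of counts matches no library and was not used.

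The members, gene lists and alternatives were chosen with earlier results of these data known. Named genes are all members, up to 5 genes past the thresholds per list and the list's most abundant gene, the 3 nearest patterns for 1 member of each class, and genes overlapping a member. Etv4, Elk3, Tsc22d3, Ergic1's counts and the markers are named besides, after their values were seen. Some genes that the rule names are not reported here. No mouse was tested as an outlier, since each group holds 3.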

Additional observations from a re-analysis of the deposited data

How the results depend on the processing

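Every tested member kept the sign of its log2 fold change under each of the up to 17 settings run, which were other scalings, filters, tools and thresholds, a replicate block, and each mouse left out. Dusp4 and Dusp8 were past the thresholds in 17 of 17 settings and Dusp5 in 15 of 16, but Dusp10 in 13 of 17, Dusp2 in 7 of 16, Dusp16 in 6 of 17, Dusp1 in 5 of 17, Dusp7 in 3 of 16 and Dusp6 in 1 of 17. Log2 fold changes ranged from 0.52 to 1.70 for Dusp1, from 0.22 to 2.97 for Dusp2, from 0.54 to 2.25 for Dusp6, from -1.25 to -0.27 for Dusp7 and from 0.26 to 1.28 for Dusp16. They also ranged from 1.78 to 4.81 for Dusp4 and from 2.045 to 5.14 for Dusp8. For Dusp5 the range was 0.69 to 2.89, and for Dusp10 it was 0.84 to 2.41. The 7 members called higher became 4 with library size alone, 4 without a filter, 3 with a mean FPKM of at least 1 (a filter that leaves 6 members in the test, without Dusp2, Dusp5 and Dusp7), and 2 or 3 with limma on log2(FPKM + 1) or log2(FPKM + 0.1). Library size alone and limma on log2(FPKM + 0.1) each called 1 member lower. With each mouse left out in turn, 4 to 7 members were called higher (4 without the second ethanol mouse or any 1 control mouse) and 0 to 1 lower (1 without the third ethanol mouse). Over all genes, 1738 higher and 2301 lower became 846 and 5385 with library size alone, 408 higher with limma on log2(FPKM + 1), 735 and 4964 with limma on log2(FPKM + 0.1), 1020 and 1166 at a mean FPKM of at least 1, 3598 and 3591 with the adjusted p alone, and 1490 to 1920 and 1713 to 2902 with a mouse left out. The share of calls that were lower was 57.0%, against 86.4% with library size alone and 80.7% and 87.1% with limma. Of the list genes named by the rule, the ones followed under every setting, Ppm1b changed sign, to 0.10 with the length trend removed, and ranged from -0.24 to 0.024 with a mouse left out (0.024 without the first ethanol mouse and 0.019 without the first control mouse). With library size alone or limma on log2(FPKM + 0.1), genes called lower numbered 3 instead of 1 among the MAP kinases and 5 or 4 instead of 1 among the MAP kinase kinase kinases. Genes called higher numbered 8 to 12 in the immediate-early list and 4 to 8 in the glucocorticoid list over the settings. The cause of these shifts was not tested.

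The labels give no pairing of mice by replicate number. Deviations of same-numbered mice correlated at -0.04, -0.03 and -0.01 across genes, and those of differently numbered mice at -0.01 to 0.03. With 3 mice per group these correlations cannot decide whether mice were paired. With the number as a replicate block, 4 members were called higher and 0 lower, beside 1518 higher and 2000 lower of the 16717 genes tested.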
